A study of Rattus norvegicus with 24 samples.

Results

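The transcripts of 10 glycolytic enzyme genes were followed in rat neural stem cells and in their differentiated progeny, grown with or without vitamin C. The genes were taken from a list in pathway order (Hk2, Gpi, Pfkp, Pfkl, Aldoa, Tpi1, Gapdh, Pgk1, Eno1 and Ldha) and matched by symbol. All 10 were among the 12187 genes of the deposited expression table, and all 10 were among the 11823 genes that reached at least 1 CPM (read counts scaled to library size) in at least 2 libraries and were tested. The cells are of Sprague-Dawley background. Neural stem cells are labelled D0, differentiated cells VC-, and cells differentiated with vitamin C VC+, with 2 RNA-seq libraries in each of the 3 groups. Differentiated libraries are labelled D4 in replicate 1 and D5 in replicate 2. The series holds 24 samples, and the 18 that are not RNA-seq were not analysed here. Neither the dose of vitamin C nor the source of the replicates is given in the labels, so p-values measure only the spread between these libraries. That spread includes the D4 and D5 labels and the marker differences between replicate sets given below. Whether the replicates are separate cultures or animals is not known.

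Glycolysis splits glucose into pyruvate in the cytosol and yields ATP without oxygen, and lactate dehydrogenase turns pyruvate into lactate and restores the NAD+ that the pathway consumes. Neural stem cells and astrocytes are known for strong aerobic glycolysis, while neurons lean more on mitochondrial respiration. Many of these enzyme genes are known targets of the hypoxia-inducible factor HIF-1, whose alpha subunit is marked for degradation by iron-dependent prolyl hydroxylases, a family of enzymes for which vitamin C is a cofactor. The comparison asks how the transcripts of the pathway differ with vitamin C during differentiation, and where each differentiated state stands relative to the stem cells.

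The 6 libraries held 4811094 to 13184601 reads over the listed genes, and every replicate 2 library was deeper than every replicate 1 library. All 12 neural stem and progenitor markers had reads in each of the 6 libraries. They summed to 5418 and 7036 CPM in D0, 5115 and 5416 CPM in VC- and 4479 and 5861 CPM in VC+ libraries. Vim and Fabp7 made up the larger part of these sums. The median log2 difference of CPM + 0.5 over the 12 was -0.36 for VC- minus D0 and -0.50 for VC+ minus D0. Over all genes it was 0.01 in each. Both VC- libraries lay below both D0 libraries for 3 of the 12 and above them for 0 (13.2% and 13.8% of all genes). Both VC+ libraries lay below both D0 libraries for 4 and above them for 1 (13.2% and 14.2%). The study calls the differentiated cells neurons. The 11 neuron markers summed to 407 and 470 CPM in D0, 509 and 428 CPM in VC- and 446 and 474 CPM in VC+ libraries. Map2 had the highest level of the 11 in each library, at 278 and 220 CPM in D0 and 212 and 137 CPM in VC- libraries. The median log2 difference over the 11 was 0.61 for VC- minus D0 and 0.25 for VC+ minus D0. In each of these comparisons 3 of the 11 were higher and 1 was lower without overlap of the groups. The replicate sets differed in markers of other cell types. The summed level of 12 microglia and macrophage markers was 4.78 to 5.30 CPM in replicate 1 and 307 to 799 CPM in replicate 2, and that of 8 fibroblast, pericyte and meningeal markers was 105 to 249 CPM against 3697 to 9527 CPM. The 11 oligodendrocyte lineage markers went the other way, with 2311 to 12622 CPM in replicate 1 and 802 to 1127 CPM in replicate 2. In bulk RNA, fewer cells of a type and less RNA per cell cannot be told apart.

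HIF-1 is known to bind the letters ACGTG and GCGTG, so the 300 bases around each member's start site (250 before and 50 after, from RefSeq on the rat build GRCr8) were searched for both on both strands. The table holds 12 promoter entries for 9 of the 10 genes, all but Pgk1. Either motif was in 8 of the 12 entries and in 7 of the 9 genes, and in 41.6% of 33469 promoters of the same length. ACGTG alone was in 5 of the 12 entries against 19.3% of promoters, and GCGTG in 6 of the 12 against 29.7%. These shares are per promoter entry, so the count of 7 of 9 genes has no like share beside it. The promoters were not matched for GC content, which ran from 51% (Hk2) to 68.3% (1 of the 2 Eno1 entries) in the member entries. Promoters are printed for 4 genes because these had the lowest 3 differences with vitamin C (Ldha, Tpi1 and Pfkl) and the only higher one (Pfkp). Each runs 5′ to 3′ on the gene's strand, and capitals mark the motifs, which read CACGT and CACGC when they lie on the other strand. They lie at chr1:106507842-106508141 on the plus strand for Ldha, chr4:159305039-159305338 on the minus strand for Tpi1, chr20:10663715-10664014 on the plus strand for Pfkl and chr17:68639563-68639862 on the plus strand for Pfkp.
Ldha: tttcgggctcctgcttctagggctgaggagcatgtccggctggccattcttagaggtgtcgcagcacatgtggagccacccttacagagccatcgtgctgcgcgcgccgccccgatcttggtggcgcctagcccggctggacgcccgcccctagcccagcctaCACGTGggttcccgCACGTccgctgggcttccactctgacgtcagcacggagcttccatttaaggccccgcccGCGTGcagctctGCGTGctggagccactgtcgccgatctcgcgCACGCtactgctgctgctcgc
Tpi1: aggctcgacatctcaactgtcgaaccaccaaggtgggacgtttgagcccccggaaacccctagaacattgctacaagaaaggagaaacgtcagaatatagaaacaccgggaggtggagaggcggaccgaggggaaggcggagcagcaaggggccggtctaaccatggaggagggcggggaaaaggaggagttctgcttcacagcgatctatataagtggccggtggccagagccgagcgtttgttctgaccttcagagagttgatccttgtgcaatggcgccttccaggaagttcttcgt
Pfkl: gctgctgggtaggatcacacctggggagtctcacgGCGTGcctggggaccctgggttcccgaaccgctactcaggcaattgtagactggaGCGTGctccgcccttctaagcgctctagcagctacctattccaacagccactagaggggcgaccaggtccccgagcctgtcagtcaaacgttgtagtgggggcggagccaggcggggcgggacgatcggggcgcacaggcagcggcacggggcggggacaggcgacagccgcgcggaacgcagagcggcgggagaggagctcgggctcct
Pfkp: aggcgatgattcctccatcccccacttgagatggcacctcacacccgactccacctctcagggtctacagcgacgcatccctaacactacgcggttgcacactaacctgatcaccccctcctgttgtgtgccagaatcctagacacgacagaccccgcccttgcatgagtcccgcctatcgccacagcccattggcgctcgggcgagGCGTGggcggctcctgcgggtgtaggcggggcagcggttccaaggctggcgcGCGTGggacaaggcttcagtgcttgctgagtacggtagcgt

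The Ldha promoter had 3 matches to ACGTG, of which the first 2 are the overlapping strands of 1 CACGTG, and 3 matches to GCGTG. The CACGTG itself was in 6.42% of promoters and in none of the other 11 member entries. Pfkl and Pfkp, which differed in opposite directions with vitamin C, each had 2 matches to GCGTG and none to ACGTG. Tpi1 had no match to either motif in this window, nor did Hk2. A match is a description of letters and not a binding site, and no binding data were used here.

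With vitamin C the transcripts of 9 of the 10 enzymes were lower than without it in both replicates, and that of Pfkp was higher in both. Among all genes tested 26.4% were lower and 30.0% higher in both replicates. Summed over the 10 genes, the level was 3294 and 3673 CPM in the VC- libraries of replicates 1 and 2 and 1729 and 2096 CPM in the VC+ libraries. Both VC+ libraries lay below both VC- libraries for 8 members (7.82% of all genes) and above them for 1 (8.15% of all genes), while Hk2 overlapped. The median log2 difference over the members, computed on log2(CPM + 0.5) as VC+ minus VC-, was -0.83, and it was -0.76 in replicate 1 and -0.75 in replicate 2. The median over all genes tested was 0.02.

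**Figure D1:**
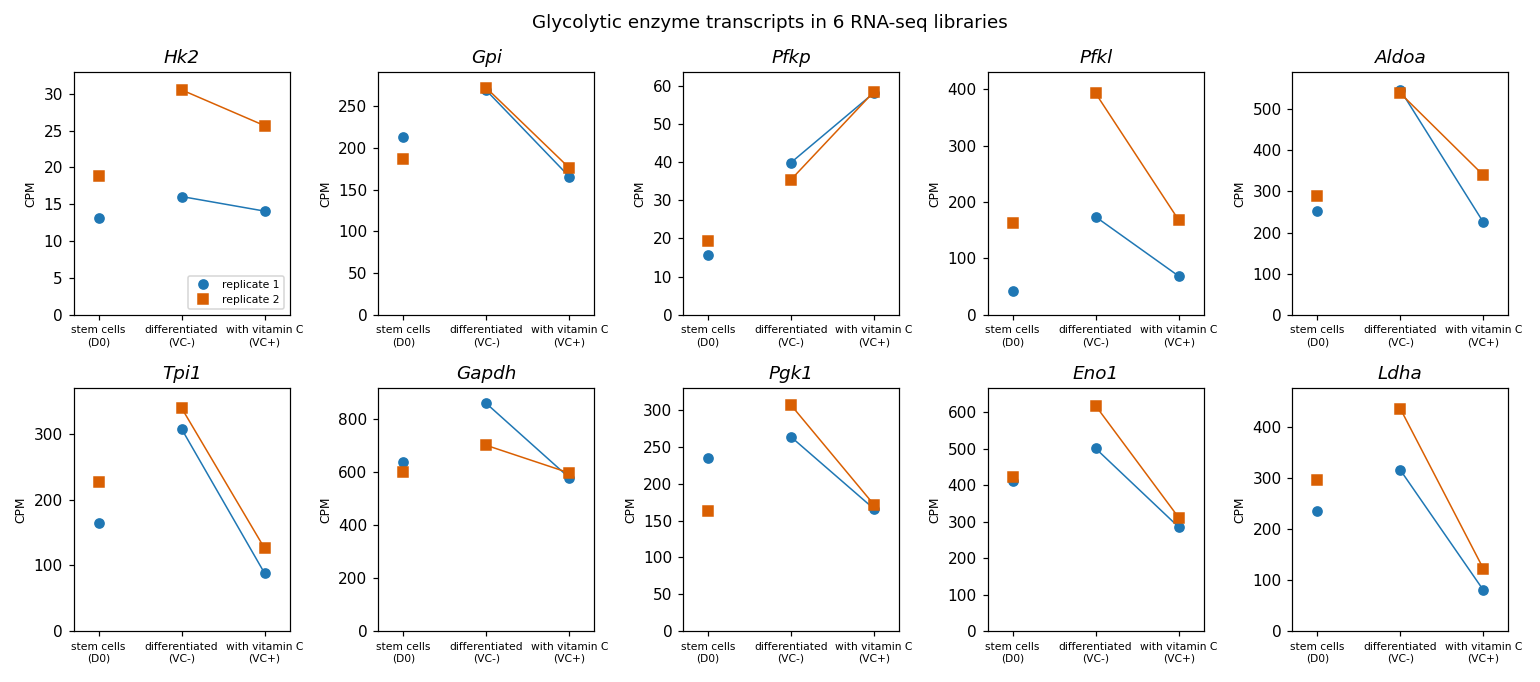
CPM (linear axis from 0) of each glycolytic enzyme gene in the 6 RNA-seq libraries: neural stem cells (D0), differentiated cells (VC-) and cells differentiated with vitamin C (VC+). Circles are replicate 1 and squares replicate 2, and lines join the VC- and VC+ libraries of a replicate. Each line falls from VC- to VC+ except for Pfkp, which reaches 58.2 and 58.5 CPM with vitamin C.

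No single member passed the main test. Limma, adjusted over all 11823 genes, called 0% of genes in this comparison, and so 0 of the 10 members. There were 62 genes at an unadjusted p under 0.05, among them 7 of the members. This fit had no term for replicate number, so differences between the replicate sets counted as spread. The 62 are fewer than a threshold of 0.05 gives on average with no effect, so 0 calls do not show that differences are absent. EdgeR on the reads recovered from the CPM values also called 0 genes, with 66 at an unadjusted p under 0.05. DESeq2 called 6 genes, 0.0246% of genes lower and 0.0246% higher, and 2 of the 3 lower ones were Ldha and Tpi1. VC- and VC+ libraries of a number also share a day label, and with that pairing as a replicate block DESeq2 called 32 genes, 0.0738% lower and 0.189% higher. Of the 9 lower ones 3 were members: Ldha, Tpi1 and Pfkl. With the same replicate block limma called 0 genes, with 404 at an unadjusted p under 0.05, and edgeR 0, with 435.

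Hexokinase traps glucose in the cell as glucose 6-phosphate, and Hk2 is its inducible isoform. Hk2 measured 16.0 CPM in replicate 1 and 30.5 CPM in replicate 2 of the VC- libraries, against 14.1 and 25.7 CPM in the VC+ libraries. Its log2 difference was -0.21 (SE 0.49, n = 2 libraries a group), the smallest in size of the 10. The spread between replicates exceeded the difference, and with 138 to 568 reads a library the counting interval of the replicate 1 ratio (VC- over VC+ 1.14, 95% interval 0.898 to 1.45) included 1 while that of replicate 2 (1.19, 1.06 to 1.34) did not. Gpi, which interconverts glucose 6-phosphate and fructose 6-phosphate, was tighter. It measured 269 and 272 CPM in the VC- libraries against 165 and 176 CPM in the VC+ libraries (log2 difference -0.66, SE 0.21). Both VC+ libraries lay below both VC- libraries, and below both D0 libraries (213 and 186 CPM) as well.

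Phosphofructokinase commits the sugar to glycolysis and is the main control point of the pathway, and its liver-type and platelet-type genes differed in opposite directions. Pfkl measured 174 and 393 CPM in the VC- libraries against 68.6 and 168 CPM in the VC+ libraries. The groups were separated only by the gap between 168 and 174 CPM, and replicate 2 lay above replicate 1 by about as much as the groups differed. Within replicates the difference was alike, with log2 values of -1.33 and -1.22 around a fitted -1.28 (SE 0.84). The SE was 0.32 in DESeq2 with the replicate block, and the adjusted p there was 0.0279, against 1.00 in edgeR with the block. Pfkp measured 39.9 and 35.4 CPM in the VC- libraries against 58.2 and 58.5 CPM in the VC+ libraries. That is 1.46-fold (95% counting interval 1.28 to 1.67) in replicate 1 and 1.65-fold in replicate 2, with a log2 difference of 0.63 (SE 0.23). The Pfkp groups did not overlap, and its DESeq2 adjusted p was 1.00 with and without the replicate block.

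Aldolase and triosephosphate isomerase make and interconvert the triose phosphates. Aldoa measured 547 and 539 CPM in the VC- libraries against 225 and 339 CPM in the VC+ libraries (log2 difference -0.97, SE 0.30). Its VC- libraries were close together, and the difference was larger in replicate 1 (-1.28) than in replicate 2 (-0.67). Tpi1 measured 308 and 340 CPM in the VC- libraries against 88.0 and 126 CPM in the VC+ libraries (log2 difference -1.62, SE 0.30). The VC- level was 3.50 times the VC+ level in replicate 1 (95% counting interval 3.25 to 3.78) and 2.70 times in replicate 2 (2.58 to 2.82). The Tpi1 groups lay far apart relative to their spread, and 14 of the 11823 genes had a lower difference. The adjusted p for Tpi1 was 1.00 in limma, 0.0198 in DESeq2 and 2.12e-06 in DESeq2 with the replicate block, and 1.00 in edgeR with and without it.

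The lower steps recover ATP and NADH. Gapdh, which oxidises glyceraldehyde 3-phosphate, measured 861 and 702 CPM in the VC- libraries against 579 and 598 CPM in the VC+ libraries (log2 difference -0.40, SE 0.30). Pgk1, which makes the first ATP of the payoff phase, measured 264 and 307 CPM in the VC- libraries against 166 and 172 CPM in the VC+ libraries (log2 difference -0.75, SE 0.27). Eno1, which forms phosphoenolpyruvate, measured 501 and 618 CPM in the VC- libraries against 285 and 311 CPM in the VC+ libraries (log2 difference -0.90, SE 0.26). For all 3 genes both VC+ libraries were below both VC- libraries, and Gapdh had the smallest difference of the 8 separated lower members. RefSeq on GRCr8 names 79 pseudogenes after Gapdh, 30 after Eno1, 30 after Ldha, 9 after Aldoa, 8 after Pgk1 and 3 after Tpi1. How reads shared with such copies were counted is not given in the sources used here, so the levels of these genes are uncertain to that extent.

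Ldha, the muscle-type subunit of lactate dehydrogenase, which favours lactate formation, had the lowest difference of the members. It measured 316 and 437 CPM in the VC- libraries against 80.2 and 122 CPM in the VC+ libraries, behind which lie 838 to 8125 reads a library. The VC- level was 3.94 times the VC+ level in replicate 1 (95% counting interval 3.65 to 4.26) and 3.57 times in replicate 2 (3.42 to 3.73), a log2 difference of -1.90 (SE 0.33). The highest VC+ library was well below the lowest VC- library, and only 4 of the 11823 genes had a lower difference. The adjusted p for Ldha was 1.00 in limma, 0.00610 in DESeq2 and 2.74e-10 in DESeq2 with the replicate block, and in edgeR it was 1.00 without and 0.659 with the block. These intervals cover counting error and not the spread between cultures or preparations.

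**Figure D2:**
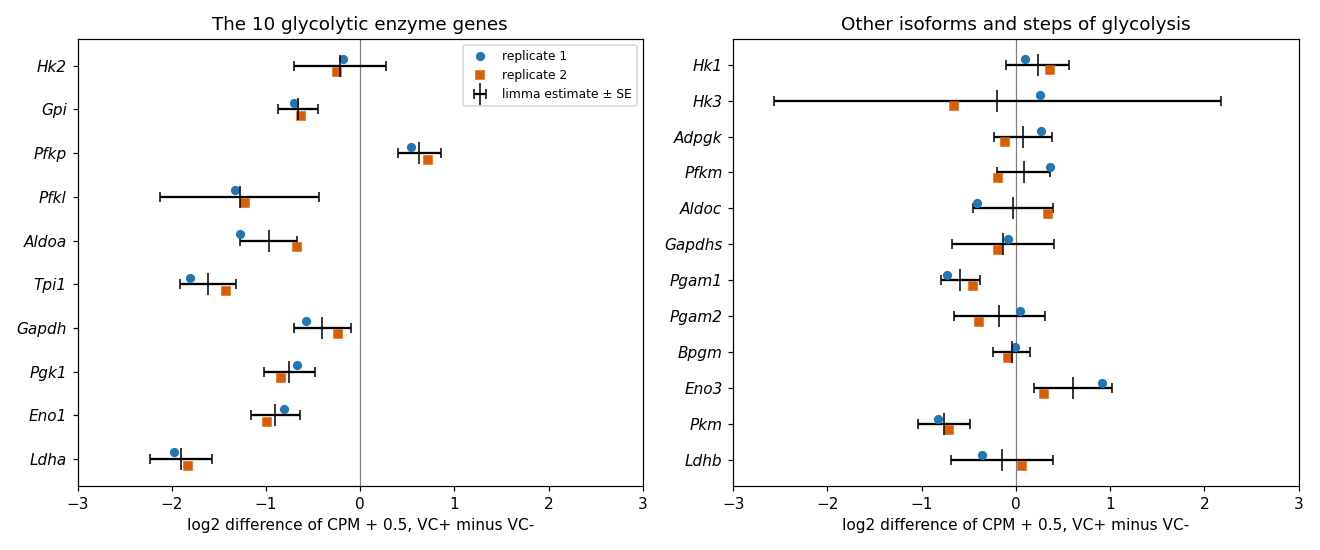
Log2 difference of CPM + 0.5 between cells differentiated with and without vitamin C (VC+ minus VC-) for the 10 glycolytic enzyme genes and for other isoforms and steps of the pathway. Circles are replicate 1, squares replicate 2 and black bars the limma estimate with its SE. All members but Pfkp lie left of 0 in both replicates, while most of the other isoforms lie near 0 and Pgam1 and Pkm lie to the left.

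Markers of several cell types moved with this comparison. The 11 astrocyte markers summed to 2834 and 8611 CPM without vitamin C and to 9457 and 15181 CPM with it, and in both replicates the sum was higher with vitamin C while 9 of the glycolytic enzymes were lower. The fibroblast, pericyte and meningeal markers were lower with vitamin C, at 249 and 5601 CPM in VC- and 169 and 3697 CPM in VC+ libraries, with 6 of the 8 lower in both replicates. The oligodendrocyte lineage markers summed to 12622 and 1127 CPM in VC- and 8922 and 853 CPM in VC+ libraries, with 7 of the 11 lower and 4 higher in both replicates. The microglial markers summed to 5.12 and 799 CPM in VC- and 4.78 and 617 CPM in VC+ libraries. The neuron marker sums overlapped, while 7 of the 11 neuron markers were lower and 2 higher in both replicates. Their median log2 difference was -0.25. Among all genes 26.4% were lower and 30.0% higher in both replicates. The part of these cell types in the enzyme differences was not tested.

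The list leaves out other isoforms and 2 steps of the pathway, and 12 genes for these were tested and described. Pgam1, the phosphoglycerate mutase, measured 197 and 172 CPM in the VC- libraries against 119 and 125 CPM in the VC+ libraries (log2 difference -0.59, SE 0.21). Pkm, the pyruvate kinase of brain and dividing cells, measured 315 and 377 CPM in the VC- libraries against 178 and 230 CPM in the VC+ libraries (log2 difference -0.77, SE 0.28). They serve the 2 steps the list lacks, and in both genes the groups did not overlap. Of the 12 genes, 3 were lower without overlap (Pgam1, Pkm and Gapdhs, the sperm-type enzyme, at 1.86 and 1.77 CPM in the VC- libraries), 1 was higher (Eno3, at 4.53 to 10.2 CPM), and the median log2 difference was -0.09 (0.02 in replicate 1 and -0.15 in replicate 2). None passed limma or DESeq2 with or without the replicate block in this comparison.

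For most alternative isoforms of the members' own steps the groups overlapped. Hk1, the constitutive hexokinase, measured 145 and 181 CPM in the VC- libraries against 156 and 232 CPM in the VC+ libraries. Pfkm, the muscle-type phosphofructokinase, measured 236 and 224 CPM in the VC- libraries against 302 and 195 CPM in the VC+ libraries. The groups overlapped for both genes, as they did for the next pair. Aldoc, the brain aldolase and itself one of the astrocyte markers, measured 221 and 137 CPM in the VC- libraries against 166 and 174 CPM in the VC+ libraries. Ldhb, the heart-type subunit of lactate dehydrogenase, measured 344 and 165 CPM in the VC- libraries against 267 and 172 CPM in the VC+ libraries. Hk3, Adpgk, Pgam2 and Bpgm also overlapped. Hk3, a hexokinase of blood cells, was listed at 0 to 0.0957 CPM in replicate 1 and at 7.49 to 13.5 CPM in replicate 2, the set with microglial markers.

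The makeup of 4 steps by isoform was then compared. Reads are not corrected for transcript length, so shares compare libraries and not the isoforms of one library. Ldha took 47.9% of the reads of Ldha and Ldhb in the VC- library of replicate 1 (95% exact binomial interval 46.6 to 49.2) and 72.6% in that of replicate 2 (71.8 to 73.4). With vitamin C its share was 23.1% (21.7 to 24.5) and 41.5% (40.3 to 42.7). The share of Ldha was lower with vitamin C in both replicates, and the stem cells, at 37.5% and 60.2%, lay between the 2 differentiated states of their replicate number. Aldoa took 71.2% and 79.7% of the aldolase reads without vitamin C, 57.5% and 66.1% with it, and 61.7% and 48.0% in stem cells.

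Within phosphofructokinase, Pfkl took 38.7% and 60.3% of the reads of the 3 genes without vitamin C and 16.0% and 39.8% with it. Pfkp took 8.87% and 5.43% without it and 13.6% and 13.9% with it. The summed level of the 3 genes was 449 and 652 CPM without vitamin C and 429 and 422 CPM with it. The sum was thus close in replicate 1 and lower with vitamin C in replicate 2, while Pfkl lost share in both. Pfkm took 52.5% and 34.3% without vitamin C and 70.4% and 46.3% with it, so Pfkm and Pfkp both gained share. The level of Pfkm itself was higher with vitamin C in replicate 1 (236 against 302 CPM) and lower in replicate 2 (224 against 195 CPM). That of Pfkp was higher in both. Hk2 took 9.94% and 14.4% of the reads of Hk1 and Hk2 without vitamin C and 8.28% and 9.96% with it.

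**Figure D3:**
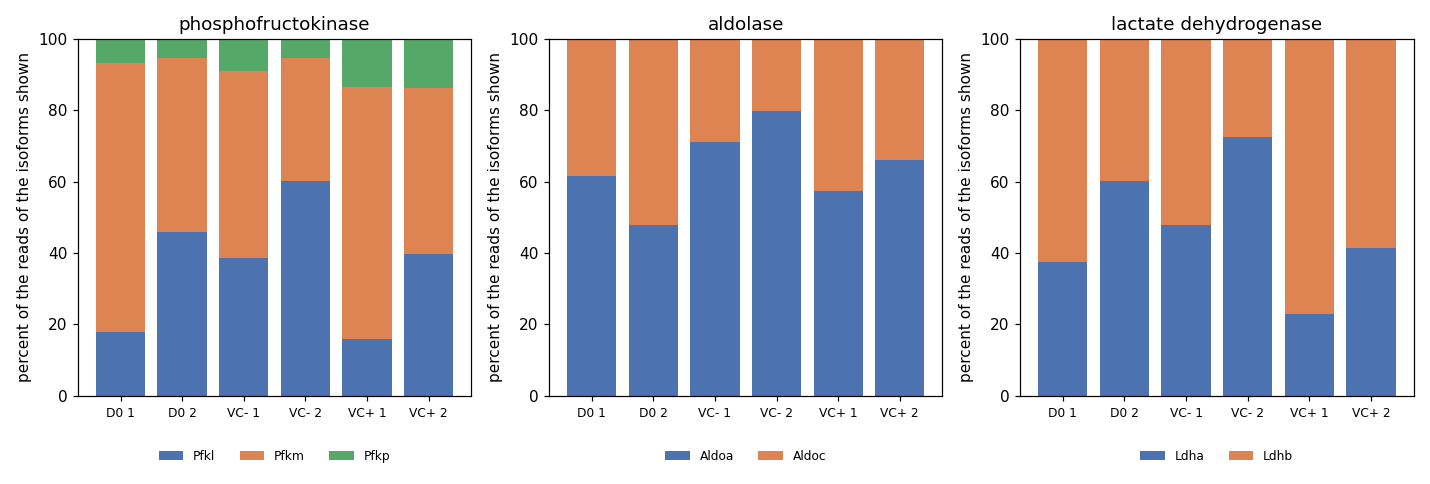
Percent of reads taken by each isoform of phosphofructokinase, aldolase and lactate dehydrogenase in each library (group, then replicate number; bars are single libraries stacked to 100%). The Ldha share is 47.9% and 72.6% in the VC- libraries and 23.1% and 41.5% in the VC+ libraries, and the Pfkp share is highest in the 2 VC+ libraries.

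Differentiation without vitamin C was compared with the stem cells. All 10 members were higher in VC- than in D0 libraries of the same replicate number, and 9 of them (all but Hk2) without overlap, where 13.8% of all genes were higher and 13.2% lower without overlap. The members' median log2 difference, VC- minus D0, was 0.51, against 0.01 over all genes. By limma 0% of genes were called (382 had an unadjusted p under 0.05), and by edgeR 0 (384 under 0.05). DESeq2 called 63 genes, 0.157% higher and 0.392% lower, and Pfkp was the only member among them, at an adjusted p of 0.0151.

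The largest differences on differentiation without vitamin C were at phosphofructokinase and aldolase. Pfkl had 41.5 and 162 CPM in the D0 libraries and then 174 and 393 CPM (log2 difference 1.66, SE 0.84). Pfkp had 15.8 and 19.3 CPM in the D0 libraries and then 39.9 and 35.4 CPM (log2 difference 1.08, SE 0.23). Aldoa had 253 and 289 CPM in the D0 libraries and then 547 and 539 CPM (log2 difference 1.00, SE 0.30). For Pfkl the stem cell and differentiated libraries were separated by 162 against 174 CPM, while for Pfkp and Aldoa the gap was wider than the spread of either group. Tpi1 had 164 and 227 CPM in the D0 libraries and then 308 and 340 CPM (log2 difference 0.74, SE 0.30). The other 6 members had log2 differences from 0.33 (Gapdh) to 0.54 (Pgk1). Several of these rested on single libraries: Hk2 was 0.03 without VC- replicate 2 and 0.93 without VC- replicate 1, Gapdh 0.18 without VC- replicate 1, Pgk1 0.27 without D0 replicate 2, Eno1 0.26 and Ldha 0.26 without VC- replicate 2. All kept their sign. The astrocyte marker sum went with this comparison, from 1427 and 4609 CPM in D0 to 2834 and 8611 CPM in VC- libraries. Of these 11 markers 5 were higher and 2 lower in both replicates, and 4 went opposite ways. The oligodendrocyte lineage sum went from 2311 and 802 CPM to 12622 and 1127 CPM, with 7 of the 11 higher and 1 lower in both replicates. Their part in the enzyme differences was not tested.

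Differentiation with vitamin C gave a mixed picture against the same stem cell libraries. Of the members, 5 were lower without overlap (Gpi, Tpi1, Gapdh, Eno1 and Ldha), 1 was higher (Pfkp) and 4 overlapped, where 13.2% of all genes were lower and 14.2% higher without overlap. The members' median log2 difference, VC+ minus D0, was -0.14. By limma 0% of genes were called (507 had an unadjusted p under 0.05), and by edgeR 0 (505 under 0.05). DESeq2 called 133 genes, 0.640% lower and 0.451% higher, among them Pfkp (adjusted p 8.04e-08, higher) and Ldha (0.0435, lower).

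Ldha had 235 and 297 CPM in the D0 libraries and 80.2 and 122 CPM after differentiation with vitamin C (log2 difference -1.41, SE 0.33). Tpi1 had 164 and 227 CPM in the D0 libraries and then 88.0 and 126 CPM (log2 difference -0.87, SE 0.30). Eno1 had 412 and 422 CPM in the D0 libraries and then 285 and 311 CPM (log2 difference -0.49, SE 0.26). These 3 genes were thus above the stem cell level in VC- libraries and below it in VC+ libraries. Of the members, only Pfkp was higher in VC- than in D0 and higher again in VC+ libraries, with 15.8 and 19.3 CPM in D0, 39.9 and 35.4 CPM in VC- and 58.2 and 58.5 CPM in VC+ libraries, and its log2 difference from stem cells with vitamin C was 1.71 (SE 0.23). Gapdh (640 and 599 CPM in stem cells) and Gpi differed by -0.07 (SE 0.30) and -0.22 (SE 0.21), about their SE or less. Astrocyte markers summed to 1427 and 4609 CPM in D0 and 9457 and 15181 CPM in VC+ libraries, and their part was not tested here either. The 3 comparisons share libraries, so their differences are not independent of each other.

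The members also varied with the replicate set. The level in replicate 2 was 2.26 to 3.91 times that in replicate 1 of the same group for Pfkl and 1.44 to 1.90 times for Hk2, whereas it was 0.816 to 1.03 times for Gapdh. Over the 6 libraries the Pearson correlation of each member with the mean of the other 9, on centred log2 values, ran from 0.95 for Aldoa to 0.61 for Hk2 among 9 genes and was -0.12 for Pfkp. The libraries share the replicate difference and the group difference, so these values are descriptions. Among 9807 other genes with a mean of at least 5 CPM, the profile most like the members' mean was that of Trim26 (r 0.98), followed by Chmp1a (0.97), Ythdf1 (0.97), Ogfr (0.96), Slc25a39 (0.96), Oser1 (0.96), Slc25a11 (0.96), LOC652956 (0.96), Zfp362 (0.96) and Zfp394 (0.95). Their ranges were small: Trim26 stood at 34.4 to 39.5 CPM over all libraries, and the log2 differences of the 10 genes with vitamin C ran from -0.13 to -0.72.

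Neighbouring pathways were listed in the same way for comparison. With vitamin C, the median log2 difference was 0.01 over 15 genes of the tricarboxylic acid cycle, 0.04 over 8 of the pentose phosphate pathway, 0.07 over 10 of glycogen metabolism, 0.01 over 12 of pyruvate dehydrogenase and its kinases and -0.10 over 7 of lactate and pyruvate transport. In each of these lists at most 1 gene was lower without overlap. Glucose enters by transporters, and Slc2a1, the one with the most reads, measured 38.0 and 146 CPM in the VC- libraries against 53.5 and 182 CPM in the VC+ libraries. Over 6 glucose transporters the median was 0.31, with 0 genes lower and 1 higher without overlap. Pfkfb3, which makes the activator of phosphofructokinase, measured 32.8 and 61.7 CPM in the VC- libraries against 33.9 and 65.6 CPM in the VC+ libraries, so that neither this transporter nor this regulator was lower.

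The list nearest to the enzymes was that of HIF targets outside glycolysis. Of its 26 genes tested, 10 were lower and 0 higher without overlap with vitamin C (7.82% and 8.15% of all genes), and the median log2 difference was -0.61 (-0.20 in replicate 1 and -0.73 in replicate 2). None passed limma, and 2 were called lower by DESeq2 with the replicate block, Vegfa and Narf, the latter named after its value was seen. Vegfa, the vascular growth factor, measured 165 and 591 CPM in the VC- libraries against 76.7 and 196 CPM in the VC+ libraries. P4ha1, a collagen prolyl hydroxylase, measured 67.3 and 199.6 CPM in the VC- libraries against 38.5 and 40.0 CPM in the VC+ libraries. Slc2a1 and Pfkfb3 belong to this list too. Hif1a, which encodes the HIF-1 alpha subunit, measured 122 and 86.0 CPM in the VC- libraries against 119 and 83.7 CPM in the VC+ libraries, and 0 of 9 genes for HIF subunits and their regulators had groups that did not overlap. Whether the enzymes differ from the HIF targets was not tested.

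**Figure D4:**
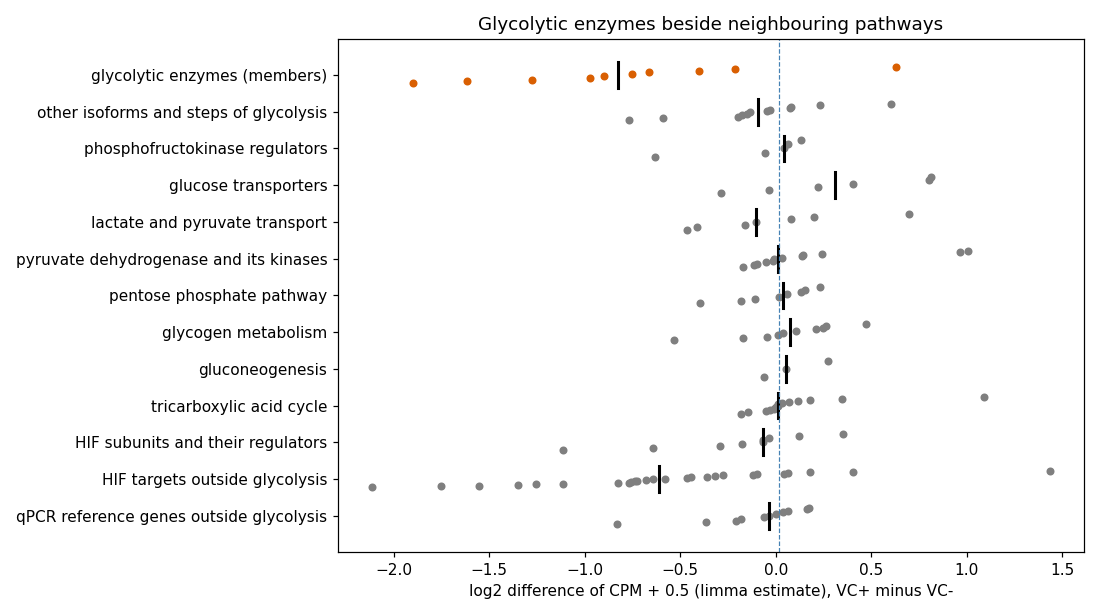
Log2 difference of CPM + 0.5 (limma estimate, VC+ minus VC-) of each tested gene in the glycolytic enzyme list (orange) and in neighbouring lists (grey). Black bars are list medians and the dashed line is the median of all genes tested, 0.02. The members' median is -0.83 and that of the HIF targets outside glycolysis -0.61, and the other medians lie between -0.10 and 0.31.

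Gapdh and Pgk1 are often used to normalise qPCR, so the members were also set against 11 other reference genes within each library. The Gapdh to Actb ratio was 0.340 and 0.429 without vitamin C and 0.283 and 0.380 with it. In both replicates Gapdh was lower with vitamin C relative to 8 of the 11 genes, it was higher relative to Tfrc, and it was near even relative to Rpl13a (log2 change -0.07 and 0.01). Pgk1 was lower in both replicates relative to 10 of the 11, all but Tfrc. Rpl13a itself measured 561 and 432 CPM in the VC- libraries against 398 and 366 CPM in the VC+ libraries. Relative to each of the 11 genes Ldha was lower with vitamin C in both replicates, from -0.93 (Tfrc) to -2.25 (B2m) on the log2 scale. The direction for Ldha thus did not turn with the gene used as the base, whereas that for Gapdh did.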

How the data were processed

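RNA-seq was analysed in 6 libraries. The authors deposited a table of CPM values, 1 row per gene. The submitters' processing notes name STAR 2.5.1, edgeR 3.12.1 and the rn5 build. The read counter, strand setting, annotation and gene filter are not given in the sources used here, and reads of overlapping genes cannot be told apart. All values (100%) were whole multiples of 1 step per library (tolerance 1e-06), so whole reads were recovered by division.

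Limma 3.58.1 in R 4.3.3 (two-sided, trended variance) was run on log2(CPM + 0.5) for genes that reached 1 CPM in 2 or more libraries, with the 3 groups in 1 fit and a Benjamini-Hochberg adjusted p under 0.05 over 11823 genes. This scale understates the change of low genes. An exact permutation test of 2 against 2 libraries cannot go below p 0.333. The code was tested on simulated data. Deviations of same-numbered VC- and VC+ libraries from their group means correlated at 0.914 across genes, and the pairing comes from the number and the D4 or D5 label.

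All 10 members were described, as was each tested gene of the other steps except 1 that is not reported here and was left out of its list. Other lists were given by their counts, with at most the 4 genes of highest mean CPM named. The most alike genes were the 10 of highest correlation. The members and lists were chosen with earlier results of these data known. Alternatives were pseudocounts of 0.1 and 2, no filter, a minimum of 5 CPM, median-of-ratios and TMM scaling, the replicate block, no trend, only the 2 groups compared, leaving out each library, and count models on the recovered reads (DESeq2 1.42.0, edgeR 4.0.16). Each replicate taken alone was added after the data were seen.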

Additional observations from a re-analysis of the deposited data

Results flagged for a closer look

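Aldoa and Pgk1 stood out because their differences from stem cells had opposite signs in the 2 replicate sets when cells were differentiated with vitamin C. For Aldoa the log2 difference, VC+ minus D0, was -0.17 in replicate 1 (labelled D4) and 0.23 in replicate 2 (labelled D5), a gap of 0.402. For Pgk1 it was -0.50 and 0.07, a gap of 0.579. With 1 library per group in each set, neither gap was tested.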

How the results depend on the processing

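For VC+ minus VC-, the members' median of -0.83 was -0.822 with a pseudocount of 2, -0.833 with median-of-ratios and -0.836 with TMM scaling, -0.844 with edgeR and -0.840 with DESeq2, and with the replicate block -0.842 (edgeR) and -0.839 (DESeq2). It was -0.755 and -0.752 in replicates 1 and 2 alone, and -0.912 to -0.656 on leaving out 1 library. DESeq2 called 6 genes and 2 members where limma called 0, and 32 and 3 in the paired fit. Against stem cells only replicate numbers are shared (correlations of 0.730 for VC- and 0.688 for VC+). There DESeq2 called 63 genes and 1 member for VC-, and 455 and 3 (Pfkp, Pfkl and Aldoa) with the replicate block. For VC+ it called 133 and 2, and 768 and 3 (Pfkp, Tpi1 and Ldha) with the block. The members' median for VC- minus D0 was 0.452 to 0.769 on leaving out 1 library. Signs turned on leaving out 1 library for Hk2, Pfkl, Aldoa and Pgk1. For VC+ minus VC-, Hk2 (-0.668 to 0.239) turned without VC+ replicate 1 or VC- replicate 2. For VC+ minus D0, Hk2 (-0.156 to 0.688) turned without VC+ replicate 2, and Pgk1 (-0.480 to 0.0509) without D0 replicate 1. There Pfkl (-0.592 to 1.36) and Aldoa (-0.266 to 0.327) turned on leaving out either of these libraries. The Pfkl difference for VC+ minus VC- was -1.92 (without VC+ replicate 2) to -0.636 (without VC+ replicate 1) and for VC- minus D0 0.687 to 2.64. For Gapdh, VC+ minus VC- was -0.548 to -0.255. These fits assume that a group of 1 library varies like the others. No scaling tried turned a member's sign. Limma and edgeR made no call under any setting, the replicate block included. Precision is limited by 2 libraries a group, and for Hk2 in D0 by 104 and 287 reads.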
